A study of Homo sapiens with 12 samples.

Results

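Genes of matrix proteolysis and plasminogen activation, 9 in number, were followed across 12 RNA sequencing libraries: the matrix metalloproteinases MMP1, MMP3, MMP10 and MMP14, the metalloproteinase inhibitor TIMP1, the plasminogen activators PLAU and PLAT, the urokinase receptor PLAUR and the activator inhibitor SERPINB2. They were the rows of the count table whose Ensembl identifiers map to these symbols, 9 of 61541 genes. Of these 9 genes, 7 passed the filter on low counts and were among the 16768 genes tested. MMP3 and SERPINB2 did not pass it, and their counts are described without a test on the filtered genes. For MMP3 an edgeR fit with no filter is also given.

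All libraries were labelled as A549, an established human lung adenocarcinoma line, and as taken 14 days after transduction. There were 4 groups of 3 libraries: cells with a Cas9 knockout of TYMS (thymidylate synthase, the enzyme that makes thymidylate for DNA synthesis) grown alone, TYMS knockout cells in co-culture, cells with a non-targeting guide (control) grown alone, and control cells in co-culture. The series text says that the co-cultured knockout cells were grown in the presence of parental A549 cells and that their proliferation was restored. The partner of the co-cultured control cells, and whether partners were removed before RNA was taken, are not given in the sources used here. The column names give 1 guide for each genotype, so guide and genotype cannot be told apart. Nothing states that replicates came from separate cultures, so p-values measure the spread between these libraries, which may be technical. In such bulk RNA, fewer cells expressing a gene and less RNA per cell cannot be told apart.

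Urokinase (PLAU) and tissue plasminogen activator (PLAT) cleave the circulating zymogen plasminogen into plasmin, a broad protease that degrades fibrin and matrix proteins and activates several pro-MMPs. PLAUR holds urokinase at the cell surface, while serpins such as SERPINE2 and SERPINB2 inactivate the activators. MMP1 is an interstitial collagenase, MMP3 and MMP10 are stromelysins, MMP14 is a membrane-anchored MMP that activates pro-MMP2, and the secreted TIMPs block most MMPs. In epithelial tumours, urokinase and its receptor are studied as components of invasion and wound-like states.

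Library totals ranged from 14921371 to 35723762 counts. The targeted gene TYMS was at 95.4 ± 5.28 CPM (counts per 1000000 counts of the library, scaled by TMM; SD, n = 3) in the lone and 93.4 ± 2.67 in the co-cultured control libraries, and 20.8 ± 0.551 in the lone and 11.03 ± 0.361 in the co-cultured knockout libraries. Other genes went against the control labels. A549 is known to lack CDKN2A and to have lost SMARCA4 function, yet CDKN2A was at 99.2 ± 22.9 CPM in the libraries labelled lone control and had 0 counts in all 3 lone knockout libraries. SMARCA4 was at 187 ± 22.5 CPM in the former and 13.5 ± 0.0463 in the latter. MAGEB2 was at 141 ± 20.9 and 150 ± 19.2 CPM in the 2 control groups and at 0 counts in all 6 knockout libraries. The knockout and any other difference between the cells of the libraries labelled control and knockout therefore cannot be told apart, and whether the libraries labelled control are of the same line was not settled here. The difference between co-cultured and lone knockout libraries uses no control library in its means. All 9 epithelial markers were above 3 counts in a library in every group. In lone knockout against lone control KRT7 and ALDH1A1 were called higher and EPCAM, KRT19, CDH1, KRT8 and MUC1 lower. Of all tested genes, 28.0% were called higher and 28.6% lower in that comparison.

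Promoter sequences from RefSeq (GRCh38.p14) are shown because AP-1 elements are a textbook feature of the stromelysin and urokinase receptor genes. For MMP10, SERPINB2 and MMP14 the stretch is of at most 130 bases before the start, outside annotated exons. For TIMP1 only 7 such bases remained, and they are not printed. Of the 9 genes, 6 had an entry in the RefSeq table used. Both strands of the 250 bases before the start were searched for the AP-1 letters TGANTCA, which are printed in capitals. In PLAUR and at both starts of PLAU all 250 bases lie in annotated exons. PLAUR is therefore printed only around its AP-1 match, with 10 bases on each side. PLAU, which held no match, is not printed.
PLAUR, chr19:43670339-43670365, minus strand, 196 to 170 bases before the start: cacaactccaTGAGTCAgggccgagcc
MMP10, chr11:102780629-102780758, minus strand, 130 to 1 bases before the start: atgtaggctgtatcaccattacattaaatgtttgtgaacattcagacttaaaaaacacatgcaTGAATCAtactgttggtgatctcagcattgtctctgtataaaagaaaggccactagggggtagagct
SERPINB2, chr18:63887575-63887699, plus strand, 130 to 6 bases before the start: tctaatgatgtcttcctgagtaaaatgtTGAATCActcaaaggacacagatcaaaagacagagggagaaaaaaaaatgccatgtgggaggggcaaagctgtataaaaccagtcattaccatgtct
MMP14, chr14:22836455-22836556, plus strand, 130 to 29 bases before the start: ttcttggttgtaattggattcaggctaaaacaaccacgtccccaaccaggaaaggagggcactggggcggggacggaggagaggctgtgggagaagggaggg

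PLAUR held the match TGAGTCA, 186 to 180 bases before its start, and MMP10 and SERPINB2 each held TGAATCA, at 67 to 61 and 102 to 96 bases before theirs. MMP10 and SERPINB2 also held the TATA box letters TATAAA, 31 to 26 and 30 to 25 bases before the start. The AP-1 letters were in 2308 of all 35116 promoters of this length in the table (6.57%), and TATAAA was in 10.7%. The printed stretches of PLAUR and SERPINB2 lie within the GENCODE 29 spans of these genes, which start farther upstream. That of PLAUR is annotated as exon. No AP-1 match was found in the windows of MMP14, TIMP1 or either start of PLAU. The PEA3 letters AGGAAG, also searched and present in 28.7% of all promoters, were found on either strand in PLAUR, SERPINB2, TIMP1 and the second start of PLAU. These matches describe letters only. Among the genes with the AP-1 letters, PLAUR was well expressed, MMP10 had at most 18 counts in any library, and SERPINB2 had at most 1.

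PLAU, the secreted activator urokinase (GRCh38, chr10:73909177-73917497, plus strand), was the member with the clearest steps between groups. Its level was 76.5, 75.5 and 86.1 CPM in the lone control libraries and 98.5, 113 and 112 in the co-cultured control libraries. It was 179, 182 and 178 CPM in lone knockout and 478, 520 and 450 in co-cultured knockout libraries. The 4 groups did not overlap, and the co-cultured knockout libraries were the highest. Grown alone, PLAU was higher in knockout than in control by 1.18 on the log2 scale (SE 0.12, edgeR adjusted p = 4.13e-06). In the knockout cells it rose a further 1.42 with co-culture (SE 0.12, adjusted p = 3.13e-05), a 2.68-fold difference with a 95% interval of 2.23 to 3.22. In control cells the co-culture difference was 0.44 (SE 0.12, unadjusted p = 0.00284 and adjusted p = 1, edgeR), and those 6 libraries did not overlap. The co-culture difference was larger in knockout than in control cells by 0.98 (SE 0.17, interaction adjusted p = 0.0111, edgeR). Exons of PLAU overlap those of C10orf55 on the opposite strand, and the strand setting of the counting is not given in the sources used here. C10orf55 itself was low, at 0.778 ± 0.227 CPM in lone control and 2.06 ± 0.441 in co-cultured knockout libraries (SD, n = 3).

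PLAT, tissue plasminogen activator (chr8:42175233-42207724, minus strand), went the other way between lone cells. It was at 11.6, 11.4 and 12.6 CPM in lone and 11.51, 10.6 and 11.2 in co-cultured control libraries. The knockout libraries held 5.24, 5.72 and 6.20 CPM alone and 14.99, 15.8 and 13.3 in co-culture. The lone knockout libraries were the lowest and the co-cultured knockout libraries the highest, with no overlap between either and the rest. PLAT was lower in lone knockout than in lone control by 2.07-fold (log2 difference -1.05, SE 0.17, edgeR adjusted p = 0.000159). With co-culture it rose 2.57-fold in knockout cells (SE 0.17 on the log2 scale, adjusted p = 0.000332, edgeR; 95% interval of the fold 2.001 to 3.29). Between the co-cultured groups the difference was 0.41 (SE 0.16, edgeR adjusted p = 0.0516), just outside the threshold of 0.05, although the libraries did not overlap. It was called without co-cultured knockout replicate 3 (0.48, edgeR adjusted p = 0.0367) and with DESeq2 (0.44, adjusted p = 0.0306). The control cells showed a difference of -0.10 with co-culture (SE 0.16, edgeR adjusted p = 1). The co-culture difference was larger in knockout than in control cells by 1.46 (SE 0.23, edgeR adjusted p = 0.00636).

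PLAUR, the receptor that anchors urokinase (chr19:43646095-43670547, minus strand), showed its difference in 1 group. It was at 58.3, 62.2 and 75.5 CPM in lone and 56.1, 64.5 and 73.5 in co-cultured control libraries, and at 53.4, 59.4 and 58.1 in lone and 131, 162 and 114 in co-cultured knockout libraries. The first 3 groups overlapped one another, and all 3 co-cultured knockout libraries lay above them. PLAUR rose 2.38-fold with co-culture in knockout cells (log2 difference 1.25, SE 0.16, edgeR adjusted p = 0.000498; 95% interval of the fold 1.87 to 3.03). Lone knockout and lone control differed by -0.20 (SE 0.16, edgeR adjusted p = 0.305). The interaction was 1.26 (SE 0.23, edgeR adjusted p = 0.0133), and without co-cultured control replicate 2 its adjusted p was 0.055.

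**Figure D1:**
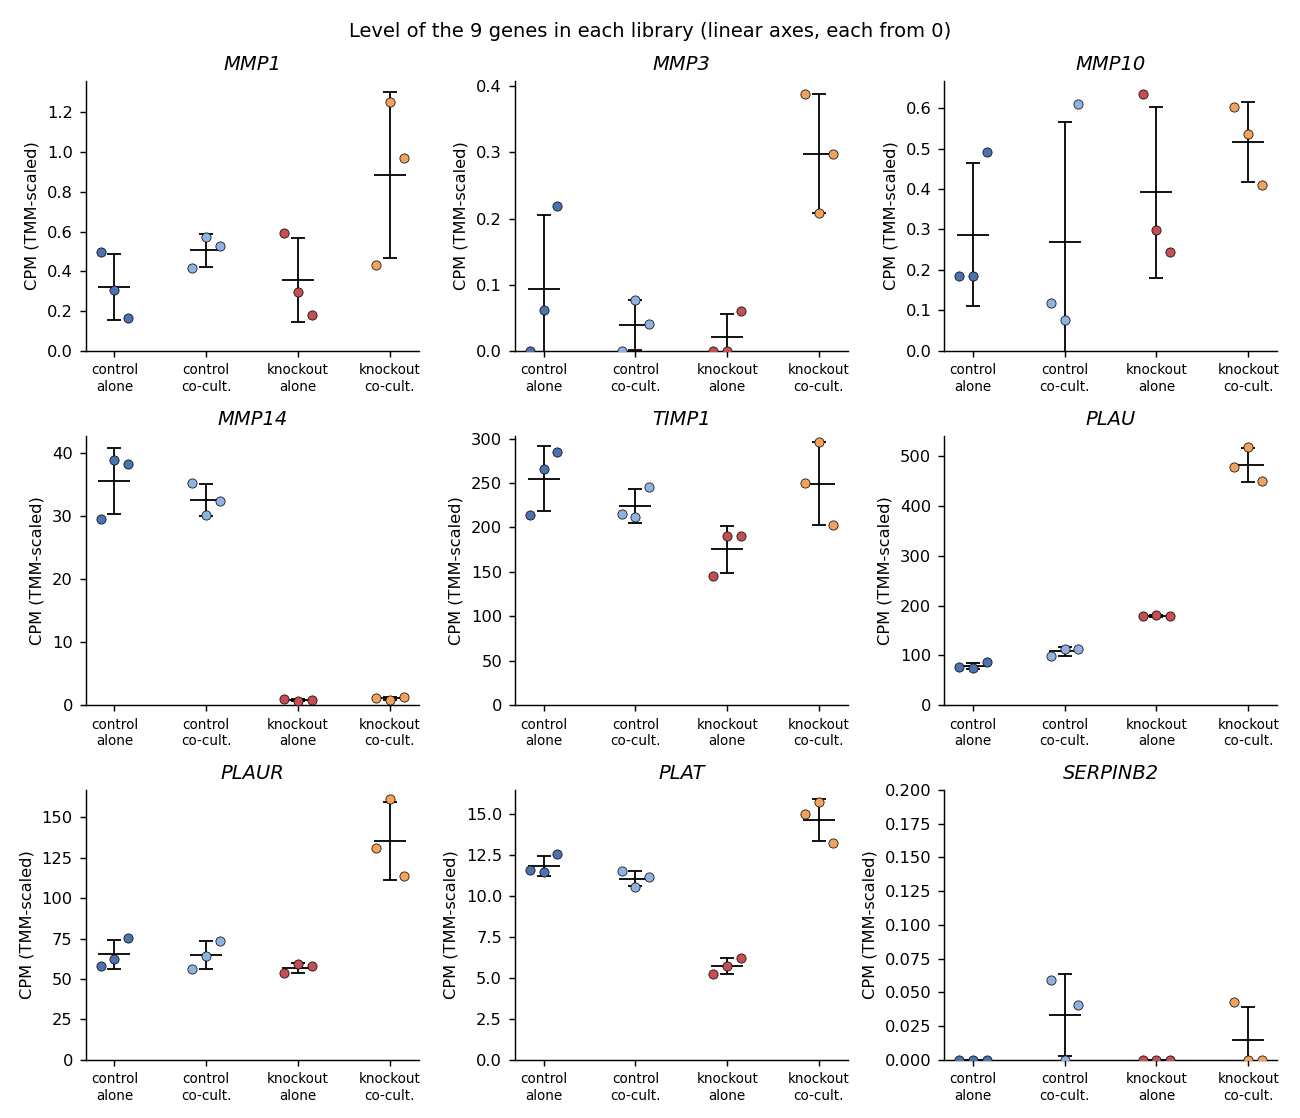
Level of each of the 9 genes in each library, in CPM scaled by TMM on linear axes that start at 0. Points are libraries, horizontal bars are means and whiskers are 1 SD over 3 libraries. PLAU, PLAUR and PLAT are highest in the 3 co-cultured knockout libraries, and MMP14 is at 0.746 to 1.38 CPM in the 6 knockout libraries.

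SERPINB2, or PAI-2, an inhibitor of urokinase (chr18:63871692-63903890, plus strand), was at the floor. Its counts were 0, 0 and 0 in lone and 1, 0 and 1 in co-cultured control libraries, and 0, 0 and 0 in lone and 1, 0 and 0 in co-cultured knockout libraries. No library passed the floor of 3 counts, so no difference was detectable at this depth and no fold is given. Its annotated exons are shared with SERPINB10, so reads of the pair may be split.

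MMP14, the membrane-type MMP (chr14:22836557-22849027, plus strand), had the widest separation between the libraries labelled control and knockout. It was at 29.7, 39.0 and 38.3 CPM in lone and 35.2, 30.2 and 32.4 in co-cultured control libraries, and at 1.06, 0.746 and 0.790 in lone and 1.12, 0.864 and 1.38 in co-cultured knockout libraries. All 6 control libraries were above all 6 knockout libraries, and within each genotype the lone and co-cultured libraries overlapped. MMP14 was 40.6-fold lower in lone knockout than in lone control libraries (log2 difference -5.34, SE 0.24, edgeR adjusted p = 2.46e-09) and 29.1-fold lower when both were co-cultured (log2 difference -4.87, SE 0.23, edgeR adjusted p = 4.14e-09). With co-culture, the knockout cells differed by 0.35 (SE 0.25, edgeR adjusted p = 0.372), with a 95% interval of -0.18 to 0.88.

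TIMP1, the secreted inhibitor of many MMPs (chrX:47582313-47586789, plus strand), was abundant throughout. It was at 214, 266 and 285 CPM in lone and 215, 211 and 246 in co-cultured control libraries, and at 145, 191 and 191 in lone and 250, 296 and 203 in co-cultured knockout libraries. The lone knockout libraries were below the other 9 libraries. TIMP1 was lower in lone knockout than in lone control libraries (log2 difference -0.54, SE 0.17, edgeR adjusted p = 0.0179). That call was lost with an offset for GC content (-0.09, adjusted p = 0.269), and without lone control replicate 2 (adjusted p = 0.0554) or 3 (0.0524) or lone knockout replicate 1 (0.0819), all by edgeR. With co-culture the knockout cells differed by 0.51 (SE 0.17, edgeR adjusted p = 0.0749) without overlap, and that difference was called with the GC offset at 0.29 (adjusted p = 0.00798), without co-cultured knockout replicate 3 (0.64, adjusted p = 0.0116) and with DESeq2 (0.58, adjusted p = 0.0430). The transcript of TIMP1 is 57.9% GC. The trend of a library's deviations with GC across 12055 genes ran from a Spearman correlation of -0.838 in co-cultured knockout replicate 3 to 0.825 in replicate 2. These libraries were also the lowest and highest of their group for TIMP1, PLAU, PLAUR and PLAT. With the GC offset the co-culture difference in knockout cells was 1.27 for PLAU, 1.05 for PLAUR and 1.61 for PLAT on the log2 scale, each still called.

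MMP1, MMP3 and MMP10 lie side by side in the chromosome 11 MMP cluster and were barely expressed. MMP1, the collagenase (chr11:102789920-102798160, minus strand), had 8, 5 and 3 counts in lone and 7, 15 and 13 in co-cultured control libraries, and 14, 6 and 3 in lone and 10, 42 and 26 in co-cultured knockout libraries. The groups overlapped. In knockout cells the co-culture difference of MMP1 was 1.26 (SE 0.48, edgeR adjusted p = 0.105), and it was called with the GC offset (1.72, adjusted p = 0.0171) and with no filter on low counts (1.40, adjusted p = 0.0335).

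MMP3, stromelysin 1 (chr11:102835801-102843803, minus strand), had 0, 1 and 4 counts in lone and 0, 2 and 1 in co-cultured control libraries, and 0, 0 and 1 in lone and 9, 7 and 8 in co-cultured knockout libraries. The co-cultured knockout libraries had the most counts. Scaled for depth they overlapped the lone control libraries, with co-cultured knockout replicate 2 at 0.209 CPM and lone control replicate 3 at 0.218. They did not overlap the lone knockout or the co-cultured control libraries, which reached 0.0608 and 0.0765 CPM. No library exceeded 0.388 CPM. From 1 count in lone knockout to 24 in co-cultured knockout, the depth-scaled ratio was 17.3, with an exact 95% interval of 2.82 to 711 that covers counting error only. MMP3 did not pass the filter. With no filter its adjusted p by edgeR was 0.0154 in that comparison. MMP1 and MMP3 share exonic positions with WTAPP1 on the opposite strand, which had at most 6 counts in a library.

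MMP10, stromelysin 2 (chr11:102770503-102780628, minus strand), had 3, 3 and 9 counts in lone and 2, 2 and 15 in co-cultured control libraries, and 15, 6 and 4 in lone and 14, 18 and 11 in co-cultured knockout libraries. All groups overlapped. Between the co-cultured groups MMP10 differed by 0.88 (SE 0.63, edgeR adjusted p = 0.267), and without co-cultured control replicate 3 by 2.36 (adjusted p = 0.0149). Its co-culture difference in knockout cells was 0.34 (SE 0.60, edgeR adjusted p = 0.734), with a 95% interval of -0.97 to 1.64 that spans both directions.

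**Figure D2:**
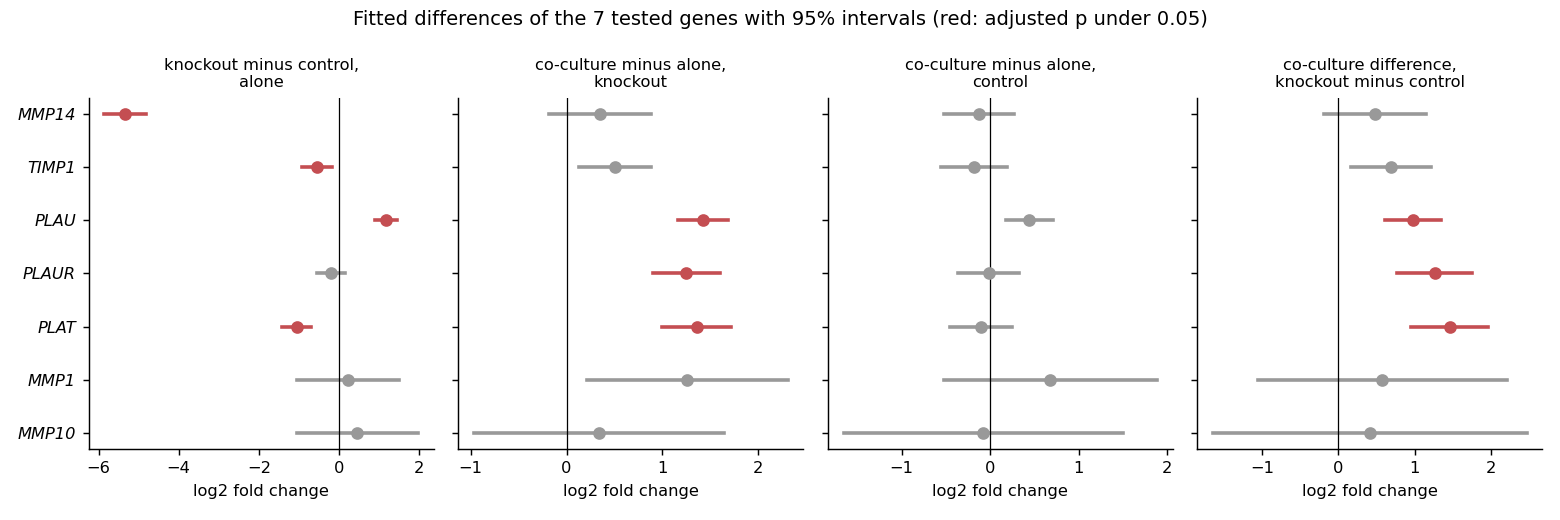
Fitted log2 differences of the 7 tested genes with 95% intervals, for knockout minus control alone, co-culture minus alone in knockout cells, the same in control cells, and the interaction; red marks an adjusted p under 0.05, and the 4 horizontal axes differ. PLAU, PLAUR and PLAT lie between 1.25 and 1.42 for co-culture of knockout cells, and no gene is red for the control cells.

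Between lone knockout and lone control libraries 4 of the 7 tested members were called, PLAU higher and MMP14, PLAT and TIMP1 lower, where 56.6% of all tested genes were called, 28.0% higher and 28.6% lower. That share of members is near the background. With co-culture of knockout cells 3 of 7 were called, PLAU, PLAT and PLAUR, all higher, where 11.4% of all genes were called, 5.97% higher and 5.40% lower. The background moved with every library left out. In place of 1907 genes, 603, 654 and 1026 were called without lone knockout replicates 1, 2 and 3, and 536, 819 and 5680 without co-cultured knockout replicates 1, 2 and 3. The members called were 3 in each of these fits except the last, with 4. Between the co-cultured groups 3 of 7 were called (PLAU and PLAUR higher, MMP14 lower), against a background of 49.4%, 24.1% higher and 25.3% lower. With co-culture of control cells 0 of 7 were called, against 0% of all genes by edgeR and by DESeq2. In that comparison 540 genes had an unadjusted p under 0.05 by edgeR and 552 by DESeq2. The interaction called 3 of 7, the same 3 genes and all higher, where 1.80% of all genes were called, 1.51% higher and 0.286% lower. Groups without overlap were found for 4 of 7 members in lone knockout against lone control (65.2% of all genes), 4 with co-culture of knockout cells (31.5%), 4 between the co-cultured groups (55.4%) and PLAU alone with co-culture of control cells (7.39%). The median log2 difference of the 7 members was 1.25 with co-culture of knockout cells and 0.01 over all tested genes. In control cells these medians were -0.08 and -0.01. The members were chosen with earlier results of these data known, so their shares beside those of all genes are descriptions and carry no test. The comparisons that use the lone knockout libraries share them, so their values stand side by side and do not support one another.

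Levels were compared between genes per kilobase of exon. In the lone control libraries the order was TIMP1 (165 ± 23.7 CPM per kilobase), PLAU (26.9 ± 1.99), PLAUR (14.7 ± 2.02), MMP14 (7.99 ± 1.17) and PLAT (1.79 ± 0.0920; SD, n = 3), each without overlap with the next. The order was the same in co-cultured control libraries. In lone knockout libraries PLAT came after PLAUR, at 0.864 ± 0.0724, and MMP10, MMP14 and MMP1 overlapped below it. In co-cultured knockout libraries PLAU (164 ± 11.8) and TIMP1 (162 ± 30.2) overlapped at the top of the order. PLAU exceeded its receptor 1.85 ± 0.130-fold per kilobase in lone control and 4.78 ± 0.251-fold in lone knockout libraries. TIMP1 exceeded MMP14 20.7 ± 0.887-fold in lone control and 612 ± 187-fold in lone knockout libraries, where MMP14 had 13 to 25 counts.

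SERPINE2 (protease nexin 1), a serpin that inhibits urokinase, was higher in lone knockout than in lone control libraries by 3.49 on the log2 scale (SE 0.15, edgeR adjusted p = 2.01e-09). It was at 68.8 ± 5.96 CPM in lone and 77.1 ± 6.87 in co-cultured control libraries (SD, n = 3). It was at 773 ± 41.4 CPM in lone and 374 ± 47.4 in co-cultured knockout libraries, and fell by 1.05 on the log2 scale (SE 0.14, edgeR adjusted p = 0.000563) where PLAU, PLAT and PLAUR rose. PLG, the substrate of the activators, had 1 count in a single library and 0 in the other 11.

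Of 24 further genes of the plasminogen system, 22 were tested. In lone knockout against lone control 12 were higher and 8 lower, where 28.0% and 28.6% of all tested genes were. With co-culture of knockout cells 2 rose and 1 fell, where 5.97% and 5.40% of all tested genes did. That share is near the background. The median log2 difference of the 22 with co-culture of knockout cells was 0.28, against 0.01 over all tested genes. Those that rose were SPINT1, an inhibitor of matriptase and related serine proteases, and TFPI2, a Kunitz inhibitor of plasmin. SPINT1 was at 195 ± 34.95 CPM in lone control, 3.24 ± 0.362 in lone knockout and 10.5 ± 0.701 in co-cultured knockout libraries, a co-culture difference of 1.69 (SE 0.16, edgeR adjusted p = 6.87e-05). TFPI2 was at 156 ± 7.70 CPM in lone knockout and 279 ± 8.25 in co-cultured knockout libraries (0.84, SE 0.17, adjusted p = 0.00874, edgeR). ST14, the membrane protease matriptase that can activate pro-urokinase, was at 395 ± 86.8 CPM in lone control and 0.155 ± 0.0618 in lone knockout libraries, and it had at most 6 counts in any knockout library.

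**Figure D3:**
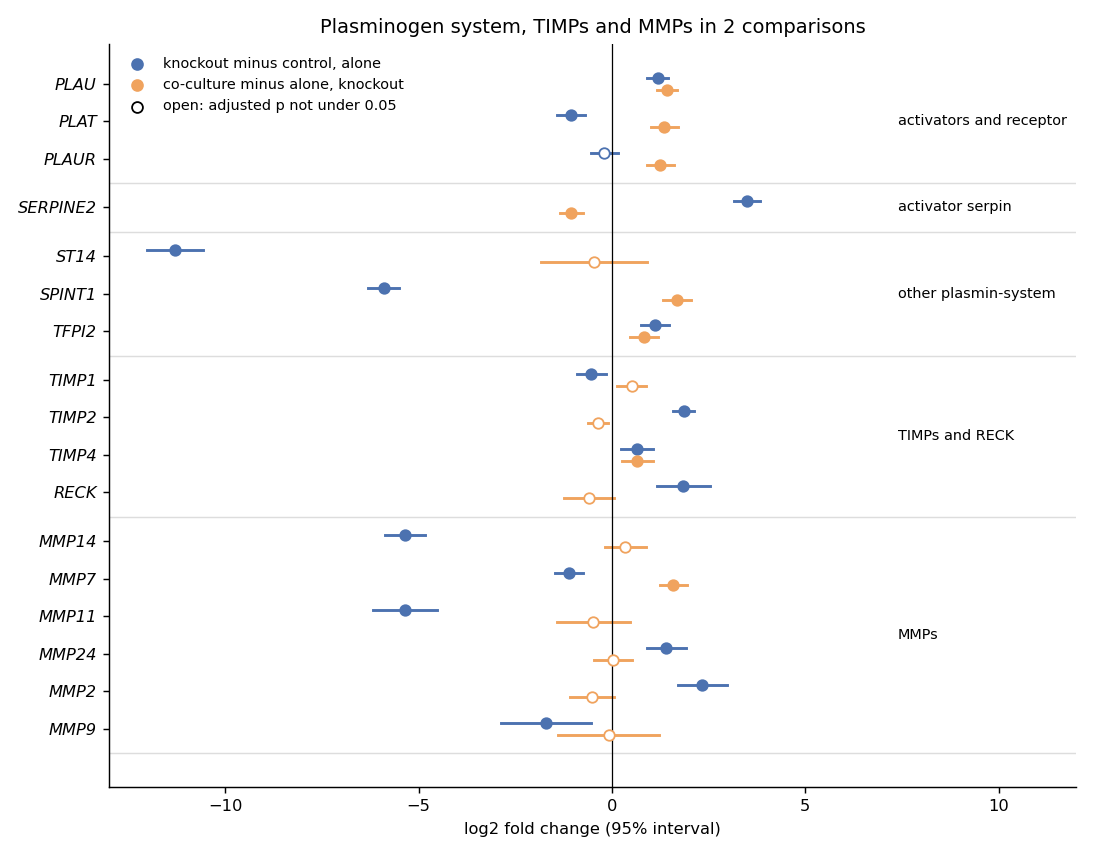
Fitted log2 differences with 95% intervals for members and other named genes of the pathway, in lone knockout against lone control (blue) and co-cultured against lone knockout (orange); open points have an adjusted p that is not under 0.05. Both comparisons use the lone knockout libraries. PLAU, PLAT and PLAUR are orange and filled at 1.25 to 1.42, while SERPINE2 is at -1.05.

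Among the other inhibitors, TIMP2, which is also needed for MMP14 to activate pro-MMP2, was at 166 ± 7.34 CPM in lone control, 602 ± 16.8 in lone knockout and 466 ± 25.7 in co-cultured knockout libraries. It was higher in lone knockout by 1.86 (SE 0.12, edgeR adjusted p = 7.24e-08), opposite to TIMP1. The ratio of TIMP2 to TIMP1 per kilobase was 0.180 ± 0.0207 in lone control and 0.952 ± 0.133 in lone knockout libraries. Of 7 inhibitors and regulators of MMPs, 6 were tested, of which 4 were higher (TIMP2, TIMP3, TIMP4 and RECK, a membrane inhibitor) and BSG, an inducer of MMPs, lower in lone knockout. Over all tested genes 28.0% were called higher and 28.6% lower in lone knockout. The median of the 6 with co-culture of knockout cells was -0.13, where 11.4% of all tested genes were called. TIMP4 alone of them was called with co-culture of knockout cells, at 14.5 ± 1.41 CPM alone and 22.9 ± 3.19 in co-culture (0.66, SE 0.19, edgeR adjusted p = 0.0395).

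Of 19 other MMP genes, 9 were tested. In lone knockout 2 were higher (MMP2 and MMP24) and 6 lower, where 28.0% and 28.6% of all tested genes were. With co-culture of knockout cells MMP7 rose and MMP28 fell, where 5.97% and 5.40% of all tested genes did. The median difference over the 9 with co-culture of knockout cells was -0.09. MMP2, the gelatinase whose proform MMP14 activates, was at 1.76 ± 0.169 CPM in lone control and 8.94 ± 2.22 in lone knockout libraries. MMP9, the other gelatinase, stayed below 1 CPM in every group mean, at 0.664 ± 0.138 in lone control and 0.184 ± 0.0788 in co-cultured knockout libraries. MMP11 was at 25.1 ± 6.27 CPM in lone control and 0.615 ± 0.213 in lone knockout libraries, a difference of -5.36 (SE 0.38, edgeR adjusted p = 1.56e-07), close in size to that of MMP14.

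MMP7, matrilysin, is the first of the MMP genes of the chromosome 11 cluster in order of position and was the well expressed one among them. It was at 26.4 ± 5.80 CPM in lone and 27.4 ± 2.56 in co-cultured control libraries, and at 12.3 ± 0.440 in lone and 37.0 ± 1.52 in co-cultured knockout libraries. Like PLAT it was lower in lone knockout than in lone control (-1.11, SE 0.16, edgeR adjusted p = 9.58e-05), rose with co-culture of knockout cells (1.59, SE 0.17, adjusted p = 0.000107) and had a positive interaction (1.54, SE 0.23, adjusted p = 0.00414). The neighbours between it and MMP13 are MMP20, MMP27, MMP8, MMP10, MMP1, MMP3 and MMP12. MMP27 and MMP13 had 0 counts in all 12 libraries.

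**Figure D4:**
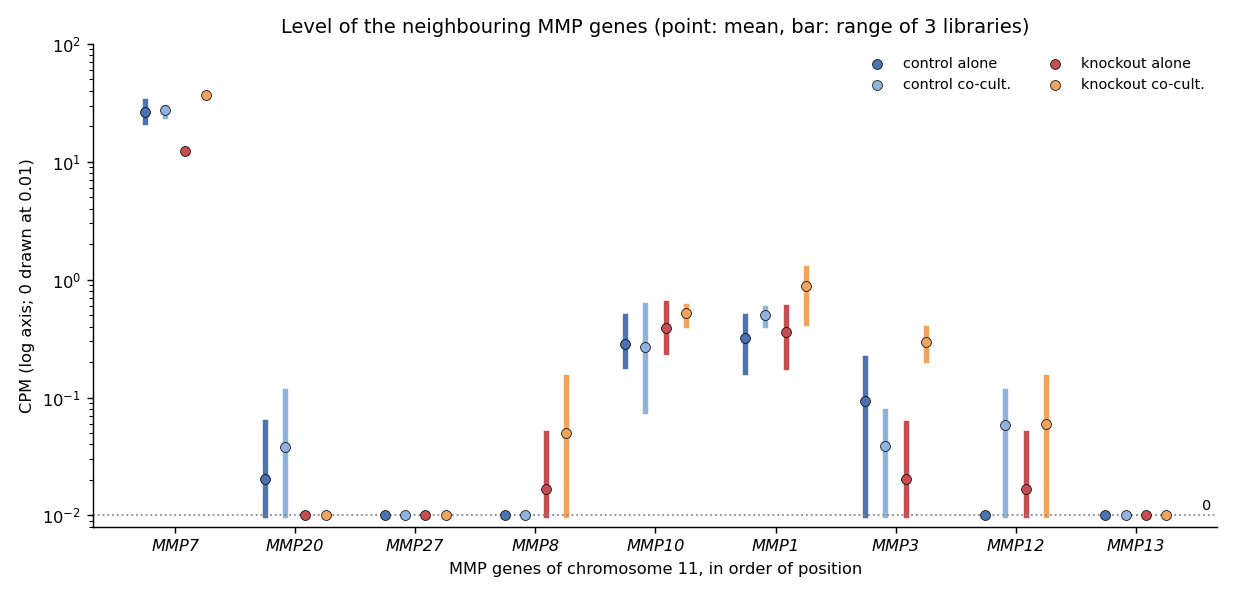
Level of the 9 neighbouring MMP genes of chromosome 11 in order of position, in CPM on a log axis with 0 drawn at 0.01. Points are group means and bars the range of 3 libraries. MMP7 is at 12.3 to 37.0 CPM in its group means, and the group means of the others are below 1 CPM.

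Among serine protease inhibitors of clade B, the family of SERPINB2, 4 of 10 other genes were tested, and with co-culture of knockout cells SERPINB7 rose and the median of the 4 was 0.93. SERPINB5 (maspin) was at 7.28 ± 1.35 CPM in lone control libraries and had at most 1 count in a lone knockout library. Of 30 ADAM and ADAMTS genes, 21 were tested, with 11 higher and 5 lower in lone knockout. There 28.0% of all tested genes were higher and 28.6% lower. The median of the 21 with co-culture of knockout cells was -0.07, and ADAMTS10 alone of them rose with co-culture of knockout cells (0.88, SE 0.25, edgeR adjusted p = 0.0400). Of 16 lysosomal cathepsins and cystatins, all were tested, and 4 rose with co-culture of knockout cells: CTSC, CTSS, CTSB and CSTA. The median of the 16 was 0.37. For these lists, the share of all tested genes that rose with co-culture of knockout cells was 5.97%, and 5.40% fell. CTSS, a cysteine protease of antigen processing and matrix turnover, was at 24.8 ± 6.40 CPM in lone and 104 ± 21.7 in co-cultured knockout libraries (2.06, SE 0.26, edgeR adjusted p = 0.000469). CTSB was at 726 ± 38.3 and 1287 ± 179 CPM (0.83, SE 0.15, edgeR adjusted p = 0.00400).

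Marker genes of other cell types that express these proteases were read beside the co-culture differences of PLAU, PLAUR and PLAT. The 9 myeloid markers summed to 5.20 to 5.90 CPM in lone and 17.1 to 19.8 in co-cultured knockout libraries. Of these 9, 5 were tested and 3 rose (CLEC4E, CD14 and CD68), where 5.97% of all tested genes rose. CD163 was at 0 counts in both knockout groups. The 9 fibroblast markers summed to 29.7 to 34.6 CPM in lone and 22.1 to 29.3 in co-cultured knockout libraries, and the 6 endothelial markers to 8.65 to 9.54 and 6.56 to 7.42 CPM. Their part in the result was not tested. The part of RNA from parental partner cells was not tested.

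The genes whose pattern was most like that of a member were found by the root-mean-square difference of gene-centred log2 CPM over the 12 libraries, among 10256 genes. The nearest to PLAU was IRAK2 (0.174), followed by ITGB1-DT (0.196). For PLAUR they were TNIP1 (0.0903) and OAS1 (0.105), and for PLAT SLC25A25 (0.125) and NFKBIA (0.143). NFKBIA was at 127, 142, 76.0 and 175 CPM in the means of the lone control, the co-cultured control, the lone knockout and the co-cultured knockout libraries, the order of low and high groups seen for PLAT except between the control groups. For MMP14 they were RBP7 (0.206) and ROR2 (0.251), and for TIMP1 IRF5 (0.0766) and CHST14 (0.0791). The nearest to MMP1 was TMEM59 (0.466) and to MMP10 IDUA (0.433), where the members' own root-mean-square spread was 0.676 and 0.701. These distances describe the libraries and carry no test.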

How the data were processed

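RNA of 12 libraries labelled A549, in 4 groups of 3, was analysed, each library placed by its own label. The authors deposited raw counts, which are whole numbers for each Ensembl identifier, and these were used unchanged. Per the labels' protocols, total RNA came from the miRNeasy kit and the NEBNext Ultra RNA kit was used for the libraries. The submitters' processing notes name FastQC, STAR 2.7.9a, featureCounts, R 4.2.1, DESeq2 1.36.0 and GRCh38; annotation and strand setting are not given in the sources used here. Positions, exon lengths and GC came from GENCODE 29 on GRCh38 (58366 of 61541 identifiers matched; 42045 had a symbol).

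Counts were tested in R 4.3.3 with edgeR 4.0.16: filterByExpr on the 4 groups (16768 genes kept), TMM scaling, and 1 quasi-likelihood model (robust) of 4 group means over all 12 libraries. P-values were adjusted by Benjamini-Hochberg over all genes tested, with a gene called under 0.05. SEs come from the F statistic. In the shallowest library 1 CPM was 16.2 counts, and the biological coefficient of variation was 22.1%. Floors of 3 counts and intervals on counts cover counting error only. The test was checked on simulated data drawn without the GC trends of these libraries, so that check does not cover those trends. Counts of replicates differed by more than counting noise (chi-square of 8.77 to 130 per gene), so no library was treated as deposited more than once; this does not show separate cultures.

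Alternatives were library size scaling alone, DESeq2 1.42.0, other filters, only the groups compared, a replicate block, GC offsets (lowess, span 0.3), a 2-fold threshold and leaving out each library. Scaling by library size alone moved the median of all genes from 0.09 to 0.24 in lone knockout against lone control and from 0.01 to -0.11 in the interaction. With it, 69.6% of calls with co-culture of knockout cells were higher, against 52.5% with TMM.

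The members and gene lists were chosen with earlier results of these data known. Besides members, named genes were PLG, SERPINE2, TIMP2, TIMP3, MMP2, MMP9 and TYMS, the 3 largest called differences per list and comparison (at least 5 CPM in the higher group), MMP genes of the chromosome 11 cluster, and the 2 nearest genes to each member. CDKN2A, SMARCA4, MAGEB2, C10orf55 and WTAPP1 were added as checks. A gene selected by this rule is not reported here.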

Additional observations from a re-analysis of the deposited data

Results flagged for a closer look

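The co-culture difference of PLAU, PLAUR and PLAT was larger in knockout than in control cells by a test of that difference itself (the interaction term, edgeR). For PLAU it was larger by 0.98 on the log2 scale (SE 0.17, adjusted p = 0.0111), with every co-cultured library above every lone library in both genotypes. For PLAUR it was larger by 1.26 (SE 0.23, adjusted p = 0.0133, edgeR), and for PLAT by 1.46 (SE 0.23, adjusted p = 0.00636, edgeR). In the same test MMP14 (0.48, adjusted p = 0.391, edgeR) and TIMP1 (0.69, adjusted p = 0.179) did not pass. The interaction uses the libraries labelled control, which may not be of the same line. The knockout and any other difference between the cells therefore cannot be told apart here either.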

How the results depend on the processing

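Across the alternatives run, PLAU, PLAUR and PLAT stayed called higher with co-culture of knockout cells, with ranges of 1.27 to 1.56, 1.05 to 1.39 and 1.30 to 1.62 on the log2 scale and a highest adjusted p of 0.0122 (edgeR, only the groups compared). MMP14 stayed lower in both knockout against control comparisons. The interaction of PLAU was lost when a 2-fold change was required, and that of PLAUR without co-cultured control replicate 2 (adjusted p = 0.055, edgeR). Depth limits MMP1, MMP3, MMP10 and SERPINB2.

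Counts of called genes moved more, and the cause was not tested. With co-culture of knockout cells 1907 genes became 3239 with DESeq2, 3340 with no filter, 664 with only the groups compared, 4879 with GC offsets and 1059 at 2-fold. The members called went from 3 of 7 to 6 with no filter and 5 with GC offsets. With no filter all 9 members were tested, and the barely expressed MMP1 and MMP3 were among those called. The interaction count of 301 became 872 with DESeq2, 1342 with no filter and 1423 with GC offsets. Knockout against control in co-culture went from 8276 to 5259 at 2-fold, and co-culture of control cells from 0 to 2 with no filter.

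Replicate numbers were not treated as pairs in the main model: deviations of same-numbered libraries correlated between -0.603 and 0.491. Between the lone control, co-cultured control and lone knockout groups, replicate 1 correlated at 0.189 to 0.491 and replicate 3 at 0.308 to 0.412. Replicate 2 was at -0.0735 to -0.0242 there. Replicate 3 of co-cultured knockout correlated with those of these groups at -0.603 to -0.523. Replicates 1 and 3 thus deviated alike outside co-cultured knockout. In these groups, in the order named, the Spearman correlation of deviations with GC was -0.741, -0.594 and -0.674 in replicate 1. In replicate 3 it was 0.715, 0.714 and 0.670. In co-cultured knockout it was 0.482 in replicate 1 and -0.838 in replicate 3. The source of these deviations was not tested. With the replicate block, genes called with co-culture of knockout cells were 1080 and in the interaction 179. With the replicate block and GC offsets these were 4185 and 873, with 5 members called in the former.

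Leaving out 1 library gave 7959 to 9859 genes and 3 to 4 members in lone knockout against lone control, 536 to 5680 and 3 to 4 with co-culture of knockout cells, 7145 to 8892 and 3 to 4 between co-cultured groups, 0 to 0 with co-culture of control cells, and 119 to 3623 and 2 to 4 in the interaction. The highest counts of genes with co-culture of knockout cells and in the interaction came without co-cultured knockout replicate 3, and the lowest without co-cultured knockout replicate 1 and co-cultured control replicate 2. TIMP1 was called in the interaction with GC offsets (0.38) and without co-cultured knockout replicate 3 (0.83), and between co-cultured groups with GC offsets (0.29).

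Differences that changed sign were all uncalled. In lone knockout against lone control they were MMP1 (-0.22 with GC offsets, with or without the block, -0.13 without lone control replicate 3 and -0.37 without lone knockout replicate 1, in a leave-one-out range of -0.37 to 0.66), MMP10 (-0.014 with GC offsets, leave-one-out range -0.10 to 1.08) and PLAUR (0.13 with GC offsets, 0.12 with the block too). TIMP1 between co-cultured groups was -0.018 without co-cultured knockout replicate 2 (leave-one-out range -0.018 to 0.29). With co-culture of control cells MMP10 ranged from -1.59 to 0.57 over the leave-one-out fits. PLAUR there was 0.06 by library size, 0.0081 with no filter, 0.0014 with only the groups compared, 0.031 with GC offsets, 0.028 with the block too, and -0.12 to 0.10 over the leave-one-out fits. The MMP10 interaction ranged from -0.24 to 1.92 over them.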
